A study of Zea mays with 15 samples.

Results

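Glutathione transferase genes gst30, gst2 and gst4 were followed in the growing zone of a maize stem internode after a spray of ethephon. Each of the 3 genes was read by 1 probe set of the Affymetrix maize array, out of 17621 probe sets for maize transcripts. The probe sets were paired with their genes by the array annotation, and the gene names came from the synonyms in maize RefSeq. There the gene called gst2 here is also listed as GST4 and GSTIV, and the gene called gst4 here also as GST3, so the names overlap between old and new schemes. gst30 was picked because its signal had the largest ethephon difference of any named gene on these arrays, so its own differences are given below as a description and without a test. gst2 and gst4 were picked by name, with earlier results of these data known. Some further genes below were picked for their values on these arrays.

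The study measured transcripts in the meristem of internode 7 of greenhouse maize. Plants at the jointing stage, with 8 leaves, received either ethephon at 600 mg/L or water. Ethephon is a growth regulator that breaks down to ethylene in plant tissue and is sprayed on cereals to shorten and stiffen the stem. The groups were untreated plants at 0 h, water-sprayed and ethephon-sprayed plants at 24 h, and water-sprayed and ethephon-sprayed plants at 48 h. Each group had 3 arrays, 15 in all, and each RNA was taken from 3 seedlings. All groups were the same maize and the labels name no inbred line. The 0 h plants received no spray, so collection time and the act of spraying cannot be told apart in any comparison with them. The p-values below measure the spread between such seedling pools within 1 greenhouse experiment.

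Glutathione transferases join the tripeptide glutathione to reactive or foreign molecules, which marks them for transport into the vacuole, and some also act as glutathione peroxidases. In maize they are best known for detoxifying herbicides, and some are induced by herbicide safeners. By these synonyms gst2 encodes the subunit of GST IV, a safener-inducible enzyme, and gst4 that of GST III, while gst1 encodes that of GST I, the main constitutive enzyme. Substrates of the gst30 product are not described here.

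Values are linear MAS5 signals in arbitrary units, and the signal of 1 probe set cannot be set against that of another. Array medians lay between 298 and 370. Pairs of arrays of the same group correlated at 0.765 to 0.914 over log2 signals and pairs from different groups at 0.680 to 0.941, and 0 of 15 arrays had their closest partner in their own group. Of the meristem markers, the homeobox gene kn1 read 2524 to 4257 over the arrays and its relative lg3 varied from 181 to 1984, both ends of that range on ethephon arrays at 24 h. The 5 markers of secondary wall and xylem all passed the filter and varied as well. Their summed signal ran from 12039 to 33634 with ethephon and from 9434 to 13119 with water at 24 h. Such sums, here and below, add raw signals, so the probe sets with the highest signals, here PAL1, weigh most. The middle 24 h values with ethephon and water were 182 and 176 for cesa10, 300 and 295 for cesa11, and 428 and 429 for CesA12. They were 2096 and 2586 for BM1 and 11489 and 6915 for PAL1. For all but PAL1 the highest ethephon reading stood far above the others. The part of these markers in the results was not tested. Of 8 green-leaf probe sets 2 passed the filter on low signals, a mean of at least 218 over the 15 arrays. These were ssu1, the small subunit of Rubisco, at 4198 to 11442, and 1 probe set of Ppdk1, at 461.5 to 1251. The other Ppdk1 probe sets, pep1 and me3 were under the filter. Ppdk1, pep1 and me3 encode enzymes of C4 photosynthesis. The tissue was a mixture of cell types, so fewer cells of a type and less RNA per cell cannot be told apart.

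gst30 was high on every ethephon array at 24 h and low on every water array. With ethephon at 24 h the signals were 1860, 1476 and 1626, in the order of replicates 1 to 3. With water at 24 h they were 134, 26.6 and 35.1. The 2 groups did not overlap, a pattern that 7.05% of all probe sets showed with ethephon higher and 10.8% with it lower, and the lowest ethephon signal stood far above the highest water signal. On the log2 scale the difference was 5.04 ± 0.87 (limma standard error, n = 3 a group), a 32.9-fold ratio of geometric means. Among the 913 named probe sets above the filter it ranked 1 by size, which restates the rule by which it was picked. It also ranked 1 among all 10573 probe sets above the filter, which it passed through its ethephon arrays. The next named genes were xet1, at 4.18, and bx1, the first gene of benzoxazinoid synthesis, at -4.04.

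At 48 h gst30 was still higher with ethephon on each array, but the ethephon arrays had spread apart. Replicate 1 read 1172, while replicates 2 and 3 read 268 and 241. The water arrays read 70.3, 15.6 and 92.9. The groups did not overlap, as for 5.14% of all probe sets with ethephon higher and 3.9% with it lower, and the log2 difference was 3.18 ± 0.87, a 9.05-fold ratio. Of the 3 ethephon arrays at 48 h, 1 was therefore near the 24 h ethephon arrays and 2 lay within the range of the untreated arrays. Without replicate 1 the difference was 2.39. The difference at 48 h minus that at 24 h was -1.86 ± 1.22. gst30 was picked for the size of its ethephon difference, so this change is description only.

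Before any spray gst30 varied more than 5-fold between pools, and no order can be given to the 3 low groups. The untreated arrays read 63.0, 350.0 and 158. Their range overlapped that of both water groups, and the log2 differences of water from untreated were -1.60 ± 0.87 at 24 h and -1.70 ± 0.87 at 48 h. Ethephon arrays at 24 h stood above all untreated arrays, with a log2 difference of 3.44 ± 0.87, as for 14.2% of all probe sets, and ethephon arrays at 48 h overlapped them, with 1.48 ± 0.87. The comparisons with 0 h share the untreated arrays, and those of ethephon and water share the water arrays.

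The geometric mean signals of gst30 ran from 1646 with ethephon at 24 h through 423 with ethephon at 48 h, 152 untreated and 50.0 with water at 24 h to 46.7 with water at 48 h. Ethephon at 24 h stood apart from ethephon at 48 h, whose arrays lay wholly below it, with a log2 difference of -1.96 ± 0.87, and 3.59% of all probe sets had that pattern. Every other pair of neighbours in that order overlapped. The 24 h ethephon arrays were also the only group whose arrays lay close together, with a log2 standard deviation of 0.17 against 1.24 to 1.38 in the other 4 groups. Signals as low as 15.6 lie where MAS5 values are imprecise, and detection calls were not used here, so the size of the ratio rests partly on the water arrays. With 32 units added to each signal the 24 h difference was 4.28 and the direction was the same.

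**Figure D1:**
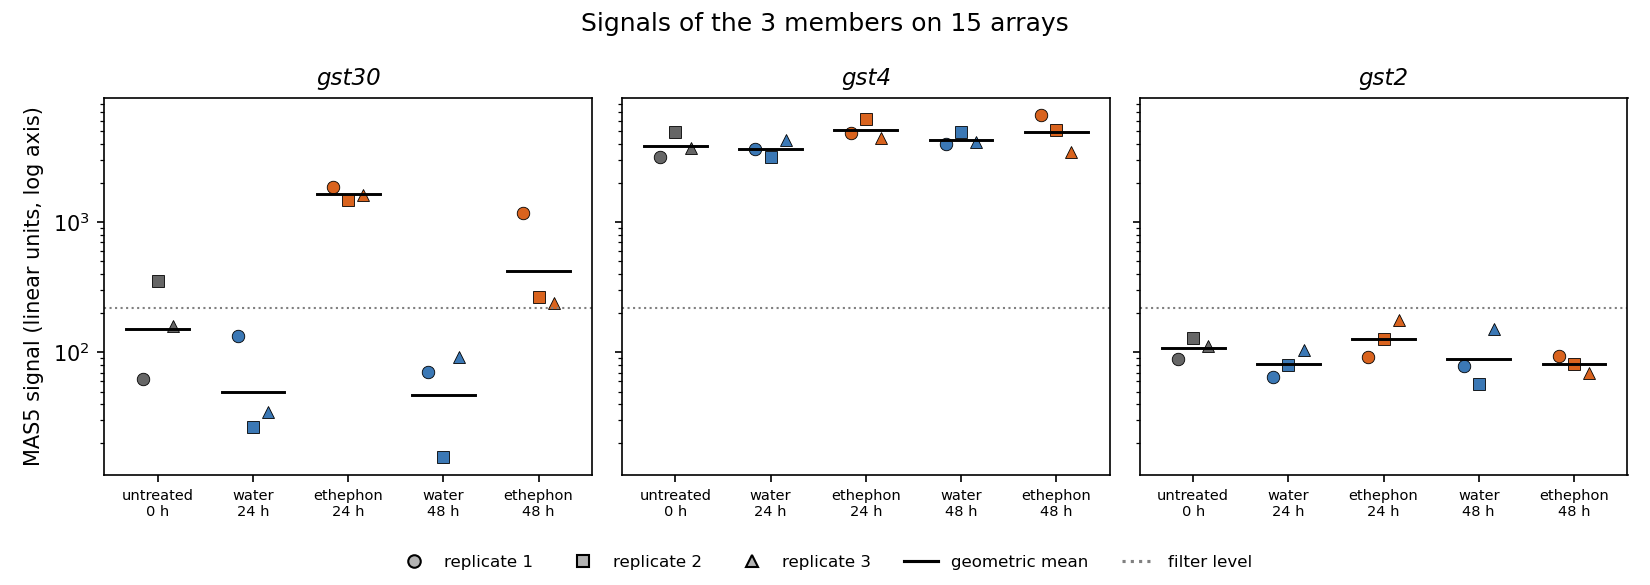
MAS5 signals (log axis) of gst30, gst4 and gst2 on the 15 arrays by group, with the replicate number as the symbol, the geometric mean as a bar and the filter level as a dotted line. gst30 was 1476 to 1860 on the 24 h ethephon arrays and 26.6 to 134 on the 24 h water arrays, while gst4 stayed between 3141 and 6620 and gst2 between 57.6 and 177 throughout.

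Whether another ethephon-related property of the arrays moved with gst30 was looked at in the RNA quality measure. The 3'/5' index compares probes at the 3' and 5' ends of control transcripts, as the mean log2 ratio over 7 pairs, and rises as labelled RNA gets shorter. At 24 h it was 1.94 ± 0.08 (SD, n = 3) with ethephon and 1.93 ± 0.36 with water. At 48 h it was 1.80 ± 0.07 with ethephon and 1.31 ± 0.31 with water, with no overlap (exact permutation p = 0.1, adjusted 0.2 over both times, 0.1 being the smallest that 3 against 3 arrays can give). When that index entered the fit as a covariate the gst30 difference was 5.04 ± 0.91 at 24 h and 3.21 ± 1.03 at 48 h. Over the settings that used all 15 arrays or all arrays compared it ranged from 4.28 to 5.41 at 24 h and from 2.45 to 3.21 at 48 h, and with 1 array left out from 4.59 to 5.75 and from 2.39 to 3.67. The kept endosperm probe sets, 3 of 8, also summed to 1390 to 1659 with ethephon and 1019 to 1217 with water at 48 h. Of these, 1 gz27 probe set read 695 to 944 with ethephon and 434 to 527 with water. The other kept gz27 probe set read 270 to 363 and 286 to 419, and bt2 177 to 604 and 271 to 449, both with overlap. The endosperm regulator o2 was under the filter. The part of these probe sets in the 48 h values was not tested.

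gst4 did not pass the test in any comparison. At 24 h its signals were 4837, 6142 and 4405 with ethephon. With water they were 3648, 3166 and 4245. The arrays did not overlap, but by a narrow margin, and the log2 difference of 0.47 ± 0.23 had an adjusted p of 0.563 (limma, 95% interval -0.03 to 0.98). Of all 10573 probe sets tested, 0% passed at an adjusted p of 0.05 in this comparison and 8.99% had an unadjusted p under 0.05. Ethephon arrays lay wholly above water arrays for 7.05% of them and wholly below for 10.8%.

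At 48 h the gst4 arrays overlapped. Signals were 6620, 5130 and 3451 with ethephon and 3946, 4869 and 4133 with water. The highest and the lowest of these 6 values were both ethephon arrays. The log2 difference was 0.19 ± 0.23 (limma adjusted p = 0.994, interval -0.32 to 0.69), and it was -0.03 without ethephon replicate 1. Of all probe sets 0% passed, and 3.24% had an unadjusted p under 0.05. The change between the times, -0.29 ± 0.33, did not pass either (adjusted p = 1), with 0% of all probe sets passing.

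Untreated arrays gave gst4 signals of 3141, 4913 and 3676, which overlapped both water groups. The log2 differences of water from untreated were -0.07 ± 0.23 at 24 h (limma adjusted p = 0.885, interval -0.58 to 0.44) and 0.16 ± 0.23 at 48 h (adjusted p = 0.849, interval -0.34 to 0.67). Of all probe sets 1.72% and 0.794% passed in these comparisons. The sign at 24 h changed with the scaling and with the arrays used, so no direction can be given. The highest of the 15 gst4 signals was 2.11 times the lowest.

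gst2 had a low signal on all 15 arrays and lay under the filter, so it was not tested. Its signals were 92.1, 126 and 177 with ethephon at 24 h. Water arrays at 24 h gave 65.1, 79.9 and 104. These groups overlapped, with a log2 difference of 0.64. At 48 h the signals were 93.7, 81.4 and 69.8 with ethephon and 78.8, 57.6 and 152 with water. The ethephon arrays lay inside the range of the water arrays, with a difference of -0.12. Untreated arrays gave 88.7, 129 and 111, overlapping every other group.

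**Figure D2:**
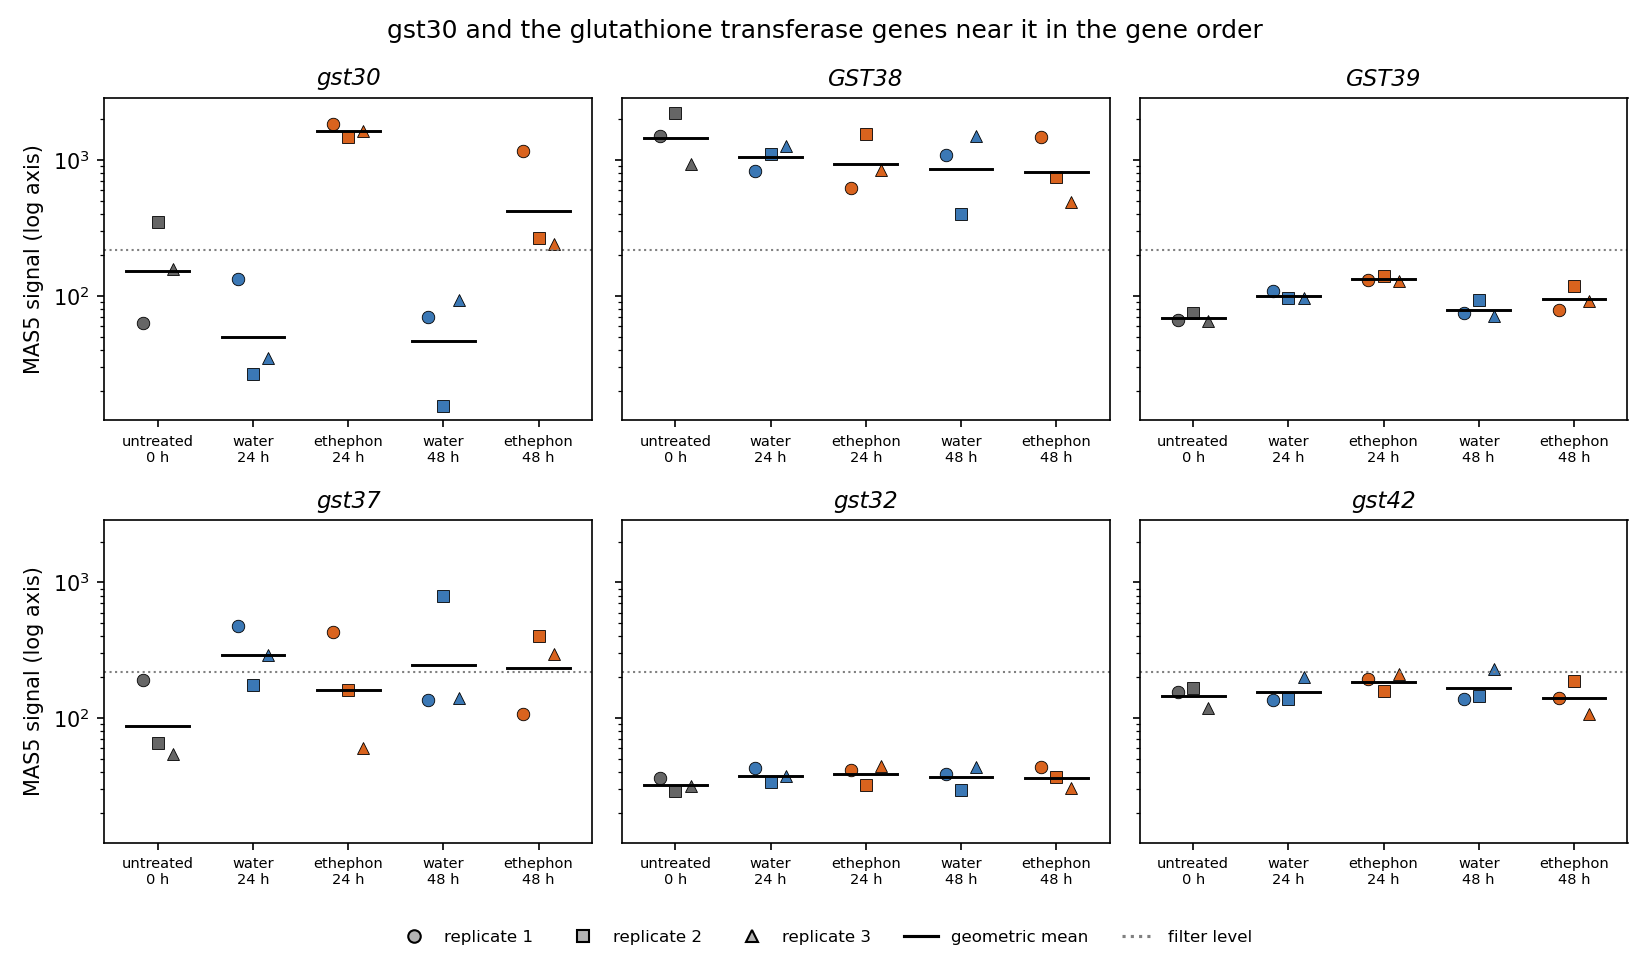
MAS5 signals (log axis) on the 15 arrays of gst30 and the 5 glutathione transferase genes within 10 genes of it, by group, with symbols for replicates, bars for geometric means and a dotted line at the filter level. The 24 h ethephon arrays stand high for gst30, and GST39 is the other panel in which they lie above the 24 h water arrays, at 128 to 141 against 96.4 to 108.

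In the RefSeq gene order gst30 lies in a run of glutathione transferase genes. GST38 is the next gene, GST39 is 2 genes away, gst37 is 4, gst32 is 8 and gst42 is 9 genes away, and no other family gene with a probe set lay within 10 genes of gst2 or gst4. GST38 read 620 to 1551 with ethephon and 832 to 1263 with water at 24 h. Its log2 difference was -0.18 ± 0.53 at 24 h (limma adjusted p = 0.898) and -0.08 ± 0.53 at 48 h (adjusted p = 0.998). The arrays overlapped at both times.

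GST39, under the filter and not tested, read 132, 141 and 128 with ethephon at 24 h. The water arrays read 96.4 to 108 and the untreated arrays 66.4, 75.5 and 65.0. Those 3 groups did not overlap one another, but the log2 difference of ethephon from water was 0.41, and at 48 h the groups overlapped. Of all probe sets under the filter, 7.85% had ethephon arrays wholly above water arrays at 24 h. Of those above the filter, 12.6% had water arrays at 24 h wholly above untreated ones, and 14.2% had ethephon arrays so. Shares against untreated arrays were not counted under the filter. gst37 swung from 54.8 to 794 with overlap of ethephon and water at both times, and gst32 (29.0 to 44.2) and gst42 overlapped in the same way. Near-identical sequences among family members could share probes, and neither cross-hybridization nor shared sequence was examined here.

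Across the family 32 genes had 36 probe sets, of which 21, for 19 genes, passed the filter. gst30 passed through its ethephon arrays, since 8 of the 9 water and untreated arrays read under the filter level of 218. Of the other 20 kept probe sets 0 passed at an adjusted p of 0.05 in either ethephon comparison, against 0% of all probe sets, and 2 had an unadjusted p under 0.05 at 24 h and 0 at 48 h, against 8.99% and 3.24% of all probe sets. At 24 h 7 of the 20 were above 0, with a median log2 difference of -0.18 against -0.03 for all probe sets. That median was -0.47 without ethephon replicate 1, -0.34 without ethephon replicate 2 and -0.38 without water replicate 1. It was -0.12 without ethephon replicate 3, -0.13 without water replicate 2 and -0.18 without water replicate 3. At 48 h 8 of the 20 were above 0, with a median of -0.08 against 0.02. With 1 array left out the 48 h median ran from -0.14 to 0.01, above 0 without water replicate 1, so no direction is given to it. The share of all probe sets above 0 was 46.6% at 24 h and 52.8% at 48 h.

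**Figure D3:**
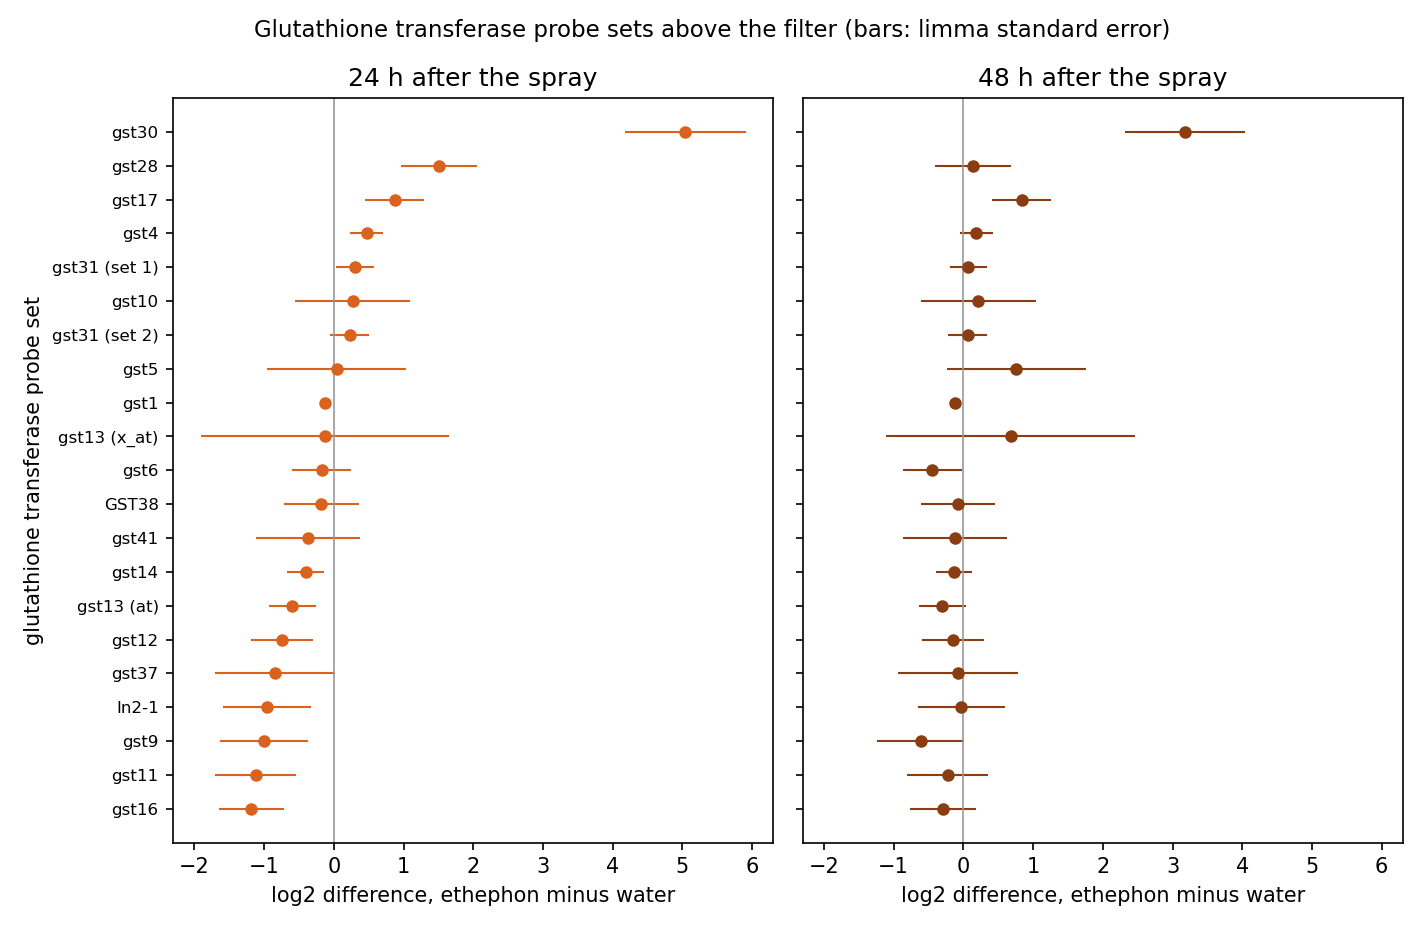
Log2 difference of ethephon minus water (x axis) at 24 h (left) and 48 h (right) for the 21 glutathione transferase probe sets above the filter, with bars of 1 limma standard error. gst30 stands at 5.04 and 3.18, gst28 at 1.51 and 0.14, and the lowest values are -1.18 for gst16 at 24 h and -0.61 for gst9 at 48 h.

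Family members whose arrays separated ethephon from water at 24 h, gst30 aside, numbered 2 higher and 4 lower of 20, against 7.05% and 10.8% of all probe sets. The higher members were gst4 and gst28. gst28 read 847, 678 and 786 with ethephon and 224, 267 and 327 with water, a log2 difference of 1.51 ± 0.55 that did not pass (limma adjusted p = 0.545). At 48 h its arrays overlapped, with a difference of 0.14 ± 0.55, and 1 untreated array read 768, inside the ethephon range. gst17 had the highest 48 h difference of the 20, with 0.87 ± 0.42 at 24 h (adjusted p = 0.563) and 0.83 ± 0.42 at 48 h (adjusted p = 0.994). Its water replicate 1 at 24 h, at 1869, lay among the ethephon arrays at 1653 to 2134.

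The 4 lower members were gst1, In2-1, gst11 and gst16, and for gst11 and gst16 the size rested on 1 array. Ethephon replicate 3 at 24 h read 491 for gst11, against 3765 and 3800 on the other ethephon arrays and 3954 to 4489 with water. It read 219 for gst16, against 995 and 776 with ethephon and 1058 to 1392 with water. The same array was the lowest of 15 for 6 of the 21 family probe sets, namely gst9, gst11, gst12, one probe set of gst13, gst14 and gst16, and for 13.3% of all kept probe sets. What sets this array apart was not tested. With it the log2 differences were -1.12 ± 0.58 for gst11 (limma adjusted p = 0.563), -1.18 ± 0.47 for gst16 (0.545) and -0.74 ± 0.44 for gst12 (0.575). Without it they were -0.14, -0.52 and -0.01, while that of gst30 was 5.05.

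**Figure D4:**
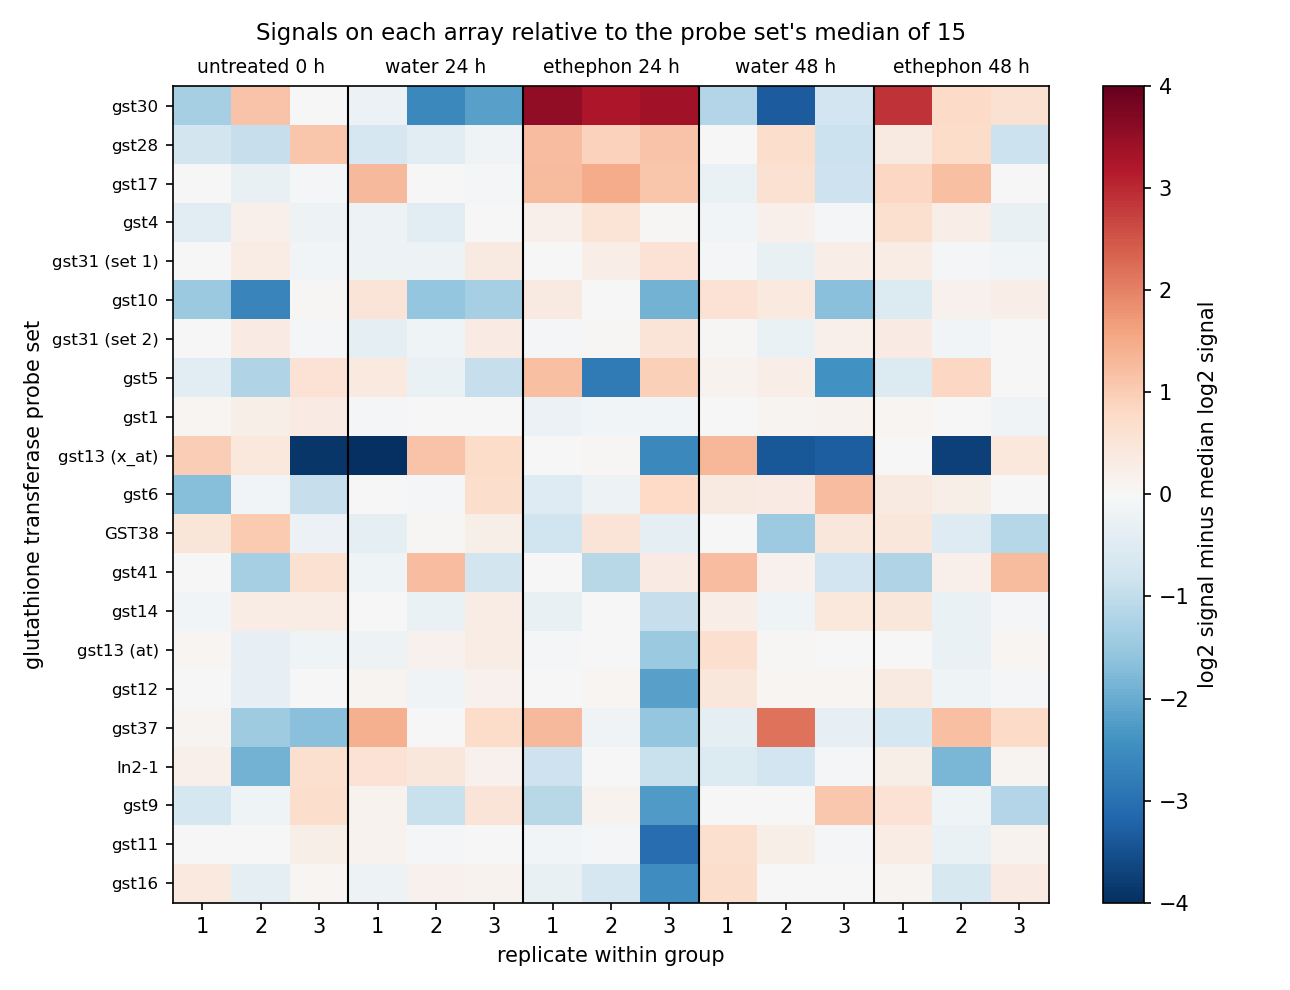
Log2 signal of each of the 21 kept glutathione transferase probe sets on each array, minus that probe set's median over the 15 arrays, as colour from -4 (blue) to 4 (red), with arrays grouped by treatment and replicate. The gst30 row is reddest on the 3 ethephon arrays at 24 h and on ethephon replicate 1 at 48 h. The column of 24 h ethephon replicate 3 is the lowest of the 15 for gst9, gst11, gst12, 1 probe set of gst13, gst14 and gst16. It is blue for other rows too, among them gst10 and gst37.

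In2-1, a safener-induced gene of the same superfamily, read 356, 626 and 337 with ethephon and 931, 850 and 699 with water at 24 h. Its difference of -0.96 ± 0.63 did not pass (limma adjusted p = 0.577), and untreated arrays ran from 170 to 974, across both groups. gst1 varied little, from 11179 to 16214 over the 15 arrays. Its ethephon arrays at 24 h, at 11179 to 12063, lay just under its water arrays, at 12344 to 13020, with a difference of -0.12 ± 0.07 (adjusted p = 0.576). The untreated arrays, at 13888 to 16214, were higher than both.

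Against untreated arrays gst1 fell by 0.37 ± 0.07 on the log2 scale with ethephon at 24 h (limma adjusted p = 0.018), in a comparison added after its values had been seen, in which 5.54% of all probe sets passed and 13.6% had ethephon arrays wholly below the untreated ones. Water at 24 h differed from untreated by -0.24 ± 0.07 (adjusted p = 0.114), a difference of the same sign without ethephon. The call was lost when the 3'/5' index entered the fit (adjusted p = 0.334), in a fit of the compared arrays alone (0.0932), without the mean trend (0.0824) and without ethephon replicate 1 (0.0537), ethephon replicate 2 (0.0535) or untreated replicate 2 (0.0706). Untreated replicate 2 had the lowest 3'/5' index, 0.239, and was the lowest of 15 arrays for 24.5% of kept probe sets.

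Of the 20 family probe sets tested between water and untreated arrays 0 passed at either time, against 1.72% and 0.794% of all probe sets. By unadjusted p under 0.05, 2 of these 20 were counted at 24 h and 1 at 48 h, against 18.9% and 9.91% of all probe sets. gst6 had 475, 462 and 776 with water at 24 h and 147, 449 and 252 untreated. The groups stood apart by a narrow margin, as 12.6% of all probe sets did in that direction, and the log2 difference of 1.12 ± 0.43 had a limma adjusted p of 0.189. At 48 h water arrays of gst6 read 616, 603 and 1133, further above the untreated ones, as 7.05% of all probe sets were wholly above, and the difference of 1.55 ± 0.43 did not pass (adjusted p = 0.181). The family members under the filter, 15 probe sets, included gst7, gst35 and GST39 with ethephon arrays wholly above water arrays at 24 h, at differences of 0.41, 0.36 and 0.41. These 3 were named after their values were seen, none was tested, and 7.85% of all probe sets under the filter had that pattern.

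Probe sets for 1 gene did not always move together. The gst13 probe sets correlated at 0.45 over the 15 arrays, the one named x_at, a type whose probes can match several transcripts, swinging from 126 to 5053. The 4 gst31 probe sets correlated at 0.58 to 0.94, and those above the filter had ethephon differences of 0.22 and 0.30 at 24 h.

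Named genes whose log2 signal followed gst30 most closely were sought over all 15 arrays and 912 other named probe sets. These correlations share the same arrays and labelling and are given as description. Pearson's r was 0.85 for cks, 0.85 for CYP88A1, 0.80 for rab17, 0.79 for cycD2 and 0.79 for LOC542193. In the background of all 912, the central 95% of r ran from -0.69 to 0.72 and 112 exceeded 0.5. Without the 2 arrays farthest from the median of gst30 the 5 values were 0.78, 0.81, 0.75, 0.72 and 0.68. The lowest values were -0.84 and -0.83 for both probe sets of LOC542610 and -0.83 for rps13, a ribosomal protein gene.

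CYP88A1, the gibberellin-synthesis gene also called dwarf3, read 684, 319 and 516 with ethephon at 24 h. Water arrays at that time gave 207, 104 and 149. The groups did not overlap at 24 h, a gap in the direction that 7.05% of all probe sets had. CYP88A1 was picked for following gst30, so this gap is no separate result. Its mean signal over the 15 arrays, 223.8, was just above the filter level of 218. Outside the 24 h ethephon arrays only ethephon replicate 1 at 48 h, at 232, exceeded that level. Ethephon arrays at 48 h, at 146 to 232, overlapped the untreated 121 to 202. The log2 difference of ethephon from water was 1.71 at 24 h and 0.64 at 48 h.

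rab17, a dehydrin induced by abscisic acid and drying, read 5997, 3673 and 6225 with ethephon at 24 h. Water gave 5275, 118 and 177, so water replicate 1 lay within the ethephon range. That array also had the highest gst30 signal of the 24 h water arrays. At 48 h rab17 with ethephon read 12069 on replicate 1 and 4455 and 349 on the others, and replicate 1 was the highest there for gst30 as well. cycD2, a D-type cyclin, read 2660 to 2945 with ethephon and 1559 to 1829 with water at 24 h. Its untreated arrays, at 2480 to 3168, were as high as those with ethephon. Both rab17 and cycD2 were picked for following gst30, so their 24 h differences are no separate result.

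**Figure D5:**
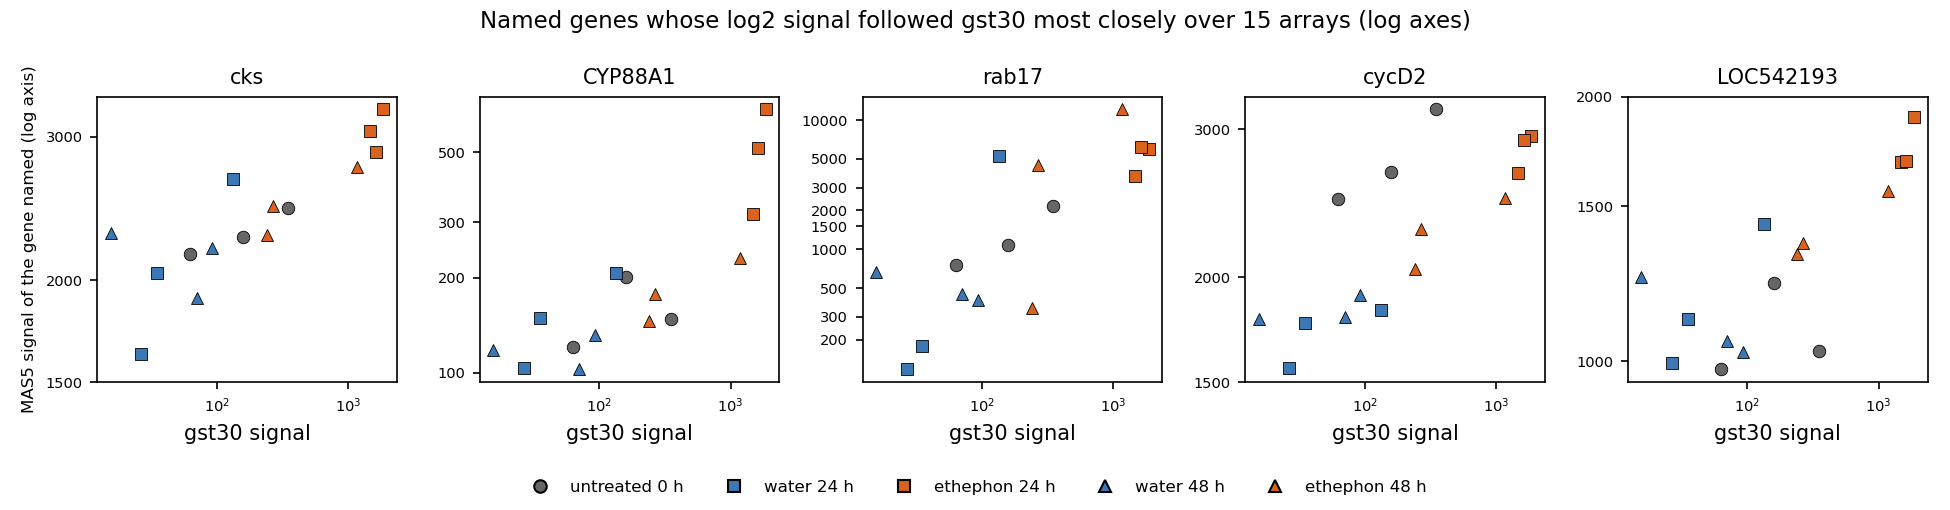
Signals of the 5 named genes most like gst30 (y axes) against gst30 (x axes), log scales, with 1 point an array and the group shown by colour and symbol. The 3 ethephon arrays at 24 h lie at the right of each panel, and untreated arrays stand above the water arrays for cycD2 at 2480 to 3168 against 1559 to 1902.

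The likeness changed once group means were removed. When each array was taken as a deviation from its group mean, 0 of those 5 genes remained among the 5 most alike. The leading genes were then GAPC2, a cytosolic glyceraldehyde-3-phosphate dehydrogenase, at 0.90, both probe sets of gpt at 0.83, vacs1 at 0.78 and gpi at 0.78. GAPC2 had an r of 0.09 over the undivided arrays. Within the family the highest r over the undivided arrays was 0.58 for gst4, ranked 71 of 912, followed by 0.57 for gst17, 0.54 for a gst31 probe set and 0.46 for gst28. Over the deviations the order differed, with 0.58 for gst14 and 0.53 for GST38 ahead of 0.40 for gst4, and gst17 and gst28 stood at 0.00 and -0.21.

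gst4 was followed most closely by see2a (0.83), both probe sets of aba1 (0.82 and 0.82), gl1 (0.81) and plt2 (0.80). see2a encodes a legumain-type protease linked to senescence, and gl1 acts in leaf wax formation. On see2a ethephon arrays at 24 h read 546 to 691 and water arrays 303 to 385, a gap in the direction that 7.05% of all probe sets had. Its untreated arrays read 312, 712 and 421, across both groups. see2a was picked for following gst4, so this gap is no separate result. At 48 h see2a had its lowest ethephon signal, 323, on replicate 3, which was also the lowest for gst4.

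Other genes of glutathione use and of ethylene action were read as lists, and 0 members of any list passed in the 5 comparisons of ethephon with water, water with untreated and the change between times. gsh1, which makes the first step of glutathione synthesis, read 887 to 980 with ethephon and 857 to 1247 with water at 24 h, a log2 difference of -0.12 ± 0.24 (limma adjusted p = 0.841). gsh2, of the second step, read 336 to 391 and 355 to 431, a difference of -0.09 ± 0.20 (0.857). The ethephon and water arrays of both genes overlapped at 24 h. At 48 h the pair had differences of 0.11 and -0.23.

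Of 8 kept genes for other detoxification 5 were above 0 at 24 h, with a median of 0.34 against -0.03 for all probe sets, and 7 at 48 h, with 0.39 against 0.02. By mean signal the leading members were bx6 and opr7. bx6, an oxygenase of benzoxazinoid synthesis, read 3839 to 6877 with ethephon and 4518 to 7285 with water at 24 h, a difference of -0.16 ± 0.34 (limma adjusted p = 0.850). opr7, an oxophytodienoate reductase of jasmonate synthesis, had a difference of 0.34 ± 0.24 (0.587). Of 7 kept genes for active oxygen 6 were above 0 at 24 h, with a median of 0.24 against -0.03. The share of all probe sets above 0 was 46.6% at 24 h and 52.8% at 48 h. trh2, a thioredoxin h, read 7769 to 8780 with ethephon and 6299 to 8093 with water (0.24 ± 0.13, adjusted p = 0.563), and sod3, a superoxide dismutase, 4420 to 5324 and 4156 to 5288 (0.03 ± 0.14, 0.928).

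The ethylene receptor gene etr2 separated ethephon from water at both times, by narrow margins. Of all probe sets 7.05% were wholly higher with ethephon at 24 h and 5.14% at 48 h. At 48 h etr2 read 365, 409 and 411 with ethephon against 236, 241 and 350 with water, sorted from low to high. It read 454, 645 and 728 with ethephon at 24 h against 212, 261 and 411 with water, sorted from low to high, and the difference of 1.08 ± 0.29 did not pass (limma adjusted p = 0.523). ERF1, the other kept ethylene gene, overlapped at 24 h (-0.13 ± 0.36, 0.896). Of 5 kept genes for the anaerobic response and haemoglobin 5 were above 0 at both times, against 46.6% and 52.8% of all probe sets. Their medians were 0.78 and 0.53. sh1, a sucrose synthase, had 0.27 ± 0.29 (0.702) at 24 h, and pdc3, a pyruvate decarboxylase, read 6020 to 6933 with ethephon and 2546 to 5444 with water, a difference of 0.87 ± 0.32 (0.545). Of 4 kept genes for abscisic acid and dehydration 4 were above 0 at both times, with medians of 2.40 and 1.18. Of all probe sets 46.6% were above 0 at 24 h and 52.8% at 48 h, with medians of -0.03 and 0.02. The lists were chosen with earlier results of these data known, so these counts are description only. rab17 had 3.43 ± 1.34 (0.545) at 24 h and dhn2, another dehydrin, 0.07 ± 0.40 (0.953).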

How the data were processed

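The deposited table holds linear MAS5 intensity values, per the submitters' processing notes. The scaling target was not given in the sources used here. Of 17734 rows 113 were controls, used only for quality. Gene names came from the array annotation and RefSeq synonyms, matched by Entrez ID: 1452 probe sets had exactly 1 gene, 1 had several and 16168 had none, and 1377 matched RefSeq. No coordinates or sequences were used.

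Log2 signals were used as they stood, with no offset and no further normalization. The filter kept 10573 of 17621 probe sets, those with a mean signal over the 15 arrays of at least the 40th percentile, 218. Differences were fitted with limma 3.58.1 (R 4.3.3) on 5 group means with mean-trended empirical Bayes moderation, and p-values were adjusted by Benjamini-Hochberg over all kept probe sets, with a threshold of 0.05. Comparisons were ethephon against water at 24 and 48 h, the difference between these, and water against untreated. Those of ethephon with untreated were added after values had been seen. The fit was checked on simulated data. The number of arrays limits the precision.

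Named genes were the members, the family genes kept by the filter, the 2 genes of highest mean signal in each other list, and those most and least like gst30 or most like gst4. GST39, gst7, gst35, xet1 and bx1 were named, and single arrays singled out, after their values were seen. The members and lists were chosen with earlier results of these data known. The main fit did not pair arrays by replicate number. Deviations from group means of same-numbered arrays correlated at -0.45 to 0.38. Differently numbered arrays were not compared, so these values cannot decide whether arrays were paired. Alternatives were other filters, an offset of 32, quantile and median scaling, array weights, other moderation, a fit of the compared arrays alone, the 3'/5' index as covariate, a replicate block and leaving out each array. Python 3.11.15, pandas 2.3.3, scipy 1.17.1 and matplotlib 3.10.9 were used.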

Additional observations from a re-analysis of the deposited data

How the results depend on the processing

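gst30 kept its direction in all 5 comparisons under all alternatives, with 4.59 to 5.75 at 24 h and 2.39 to 3.67 at 48 h when 1 array was left out. gst2 kept its side at 24 h (0.40 to 0.87) and could not be evaluated above a stricter filter, so it has no value there. gst4 did not pass under any alternative, its adjusted p at 24 h ranging from 0.0627 to 0.981, and no direction is given at 48 h, where leaving out 1 array gave -0.0308 to 0.4391, or between water at 24 h and untreated, where quantile normalization gave 0.0306, array weights 0.0492, the 3'/5' index as a covariate 0.19 and leaving out 1 array -0.22 to 0.11.

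The number of probe sets called for ethephon at 24 h was 0, 169 with array weights and 0 to 2 with 1 array left out (2 without water replicate 1). At 48 h and for the change between times it was 0 to 1 (1 without water replicate 1 at 48 h). For water at 24 h against untreated 182 became 326 with array weights, 11 in a fit of the compared arrays alone, 6 with the index covariate, 96 with the replicate block and 68 to 176 with 1 array left out (68 to 107 without any 1 of the 3 water arrays or untreated replicate 2). For water at 48 h 84 became 189, 6 with the compared arrays alone and 49 to 68 with 1 array left out (49 and 51 without water replicates 1 and 2). With the replicate block both ethephon comparisons again had 0 calls. For ethephon at 24 h against untreated 586 became 937 without a filter, 1727, 95, 4, 359 and 113 to 647 in the same order. The causes were not tested.

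Of the 5 genes most like gst30, 3 were shared when ranked by Spearman's rho and 0 by deviations from group means, and of those most like gst4, 2 were shared by deviations.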
